A study of Mus musculus with 12 samples.

Results

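The 9 genes described here, Dusp6, Dusp4, Dusp5, Spry1, Spry2, Spred1, Spred2, Phlda1 and Etv5, are feedback and output genes of the ERK pathway. They were taken by name from what is known of the pathway, with earlier results of these data in view, and they are 9 of the 27998 genes in the count tables. Their levels were read from single-cell transcriptomes of mouse bone marrow in which an activated NRas allele, loss of Ezh2, or both had been induced. The comparison of interest was that of libraries with the NRas allele against libraries without it, over all cells and within cell classes.

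In the ERK pathway, growth factor or cytokine receptors load RAS proteins with GTP, RAS switches on RAF, RAF phosphorylates MEK, and MEK phosphorylates the kinase ERK. Active ERK then induces genes whose products dampen the same pathway, so the transcripts of these feedback genes are commonly read as an output of ERK activity. In blood formation the pathway carries signals of receptors such as Kit and Flt3 in stem and progenitor cells, and mutated RAS genes are frequent in myeloid leukemia. Among the genes described here, Dusp6, Dusp4 and Dusp5 encode dual-specificity phosphatases that remove phosphates from ERK, Dusp6 in the cytoplasm and the other two in the nucleus. Spry1 and Spry2 encode Sprouty proteins, inhibitors of signaling downstream of receptor tyrosine kinases. Spred1 and Spred2 encode Sprouty-related proteins that hold RAF activation in check, Spred1 by bringing the RAS-inactivating protein neurofibromin to the membrane. Phlda1 encodes a protein with a pleckstrin homology-like domain that is induced by growth factors. Etv5 encodes an ETS family transcription factor that is induced by ERK signaling and is itself a target of it.

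Bone marrow cells of C57BL/6 mice enriched for the surface receptor c-Kit were profiled with the 10x Genomics 3' assay, with 1 library for each of 4 genotypes at T1 (2 weeks), T2 (2 months) and T3 (4 months) after pIpC. pIpC, a synthetic double-stranded RNA that induces the Mx1-Cre recombinase, was given to the mice of all genotypes, at an age of 8 to 12 weeks per the labels (the study's methods give a younger age). WT mice did not carry Mx1-Cre, E2-KO mice carried Mx1-Cre with both Ezh2 alleles floxed, G12D mice carried Mx1-Cre with 1 inducible NRas allele that encodes the constitutively active G12D protein, and G12D/E2-KO mice carried Mx1-Cre with both kinds of allele. Mx1-Cre therefore separates WT from every mutant, and it is active in cells that respond to interferon, blood cells foremost, rather than in stem cells alone. Each of the 12 libraries stands for a genotype at a time point, so the 3 time points served as the replicates of a genotype and a difference at a single time point has no replicate. The labels do not say how many mice went into a library, so the p-values below measure the spread between libraries that is left once a time effect shared by the genotypes is taken out.

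The promoters of the genes that the results turn on are shown first, because a promoter is among the places where transcription factors at the end of the ERK pathway can act. RefSeq promoter sequences (build GRCm38.p6) were matched for 7 of the 9 genes, Dusp6, Dusp5, Spry1, Spry2, Spred1, Spred2 and Etv5, with 8 start sites because Etv5 has 2. The 250 bases before each start were searched on both strands for the ETS core CGGAAGT, the cAMP response element (CRE) core TGACGTC, the AP-1 site TGANTCA and the CArG box bound by serum response factor. Below, bases that match a motif are in capitals, the strand is that of the gene, and bases that GENCODE places inside the gene are left out. Spry2 and Dusp6 are shown as the genes with the largest NRas effects over all cells, Etv5 (upstream start) as the transcription factor and Dusp5 for its CArG boxes.
Spry2, chr14:105896820-105897069, minus strand: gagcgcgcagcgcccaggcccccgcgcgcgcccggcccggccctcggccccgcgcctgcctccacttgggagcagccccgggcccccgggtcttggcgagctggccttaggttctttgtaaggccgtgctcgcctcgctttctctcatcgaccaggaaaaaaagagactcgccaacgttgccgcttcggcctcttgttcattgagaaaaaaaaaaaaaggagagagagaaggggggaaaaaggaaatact
Dusp6, chr10:99262981-99263230, plus strand: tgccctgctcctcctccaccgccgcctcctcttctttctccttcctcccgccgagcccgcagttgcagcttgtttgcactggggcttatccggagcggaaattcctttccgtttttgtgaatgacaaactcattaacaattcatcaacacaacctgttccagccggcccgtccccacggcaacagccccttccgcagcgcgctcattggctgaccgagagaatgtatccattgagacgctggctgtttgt
Etv5, chr16:22439720-22439820, minus strand: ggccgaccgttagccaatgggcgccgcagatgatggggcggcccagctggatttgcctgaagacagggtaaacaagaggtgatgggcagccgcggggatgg
Dusp5, chr19:53528895-53529108, plus strand: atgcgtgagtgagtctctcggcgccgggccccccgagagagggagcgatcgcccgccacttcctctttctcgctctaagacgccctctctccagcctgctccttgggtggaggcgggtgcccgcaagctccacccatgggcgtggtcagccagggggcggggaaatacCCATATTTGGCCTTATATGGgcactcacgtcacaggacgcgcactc

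The Dusp5 window held 2 adjoining CArG boxes, CCATATTTGG and CCTTATATGG, which begin 82 and 72 bases before the RefSeq start and do not overlap. The Spred2 window held 1 CRE core on the strand opposite to the gene, which reads GACGTCA on the gene's own strand, 53 bases before its start. None of these letters occurred in the windows of Spry2, Dusp6, Spry1, Spred1 or either start of Etv5. Over 32851 RefSeq promoters of the same length, 4.92% held the ETS core, 2.78% the CRE core, 6.75% the AP-1 site and 1.47% the CArG box. These matches describe letters, not bound sites, and a window without them says nothing about the factors.

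The genes lie on 8 chromosomes (mm10, GENCODE M21 gene bounds): Spred1 at chr2:117121374-117182279, Spry1 at chr3:37639947-37644598, Dusp4 at chr8:34807297-34819894, Dusp6 at chr10:99263231-99267489, Phlda1 at chr10:111506286-111508645, Spred2 at chr11:19924375-20024026, Spry2 at chr14:105891947-105896819, Etv5 at chr16:22381309-22439719 and Dusp5 at chr19:53529109-53542431. The 3' assay counts molecules by a tag near the end of the transcript, so a count carries no isoform information.

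The libraries held 2350 to 3767 cells and 12636998 to 23646292 UMIs. A UMI is the random barcode by which copies of the same captured transcript are counted once. Levels are given as CPM, the UMIs of a gene per 1000000 UMIs of the library or of a cell class in it, and intervals cover counting error only. The G12D T1 table held 5648 cells, and 2896 of these matched cells of G12D/E2-KO T1, 95.1% of the 3044 there. These cells were kept in G12D/E2-KO T1 alone, leaving 2752 cells in G12D T1, and the edgeR calls named below are also given without both libraries. Ezh2 followed the labels, with means of 113 ± 17.1 (WT) and 90.3 ± 11.1 CPM (G12D) where it was intact and 30.1 ± 3.90 (E2-KO) and 22.8 ± 2.31 CPM (G12D/E2-KO) where it was deleted (SD, n = 3 libraries). Nras averaged 60.5 to 71.3 CPM in the 4 genotypes, and counts cannot tell its activated allele from the normal one. Kit, the receptor used for enrichment, had 43.6 to 80.8 CPM and a UMI in 20.2% to 30.4% of cells. Xist was at 1296 to 1357 CPM in the T3 libraries of WT, E2-KO and G12D and at no more than 0.609 CPM in every other library, so the G12D/E2-KO T3 library came from the other sex than the T3 libraries it is compared with.

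Depth differed widely between the genes. Over the 12 libraries there were 3619 UMIs of Spred1, 3003 of Spry2, 2469 of Spred2, 2082 of Dusp6, 1109 of Phlda1, 628 of Etv5, 362 of Dusp5, 237 of Spry1 and 14 of Dusp4. Dusp4 had 0 to 4 UMIs per library and did not pass the filter on low counts, so no difference could be detected for it at this depth. In the 4 libraries without a Dusp4 UMI (WT T1, G12D T1, G12D T2 and G12D/E2-KO T1), the limit of 3 UMIs corresponds to 0.135 to 0.178 CPM. The other 8 genes were tested.

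In WT marrow the genes were spread over the cell classes in different ways, as the plot of WT levels by class shows. Cell classes were rebuilt from marker genes with the 9 genes left out of the clustering, and each is named after the type its markers point to: HSC/MPP-like (stem cells and multipotent progenitors), GMP/early GN-like (granulocyte-macrophage progenitors and early granulocytes), late GN-like (late granulocytes), ProMo-like (promonocytes), MEP-like (megakaryocyte-erythroid progenitors), Meg-like (megakaryocytic cells), EryP/early Ery-like and late Ery-like (erythroid cells), and B, T/NK, dendritic (DC), basophil and mast cell (baso/mast) and macrophage-like cells. The suffix is left out from here on. These WT levels are a description, with no test between classes, and T/NK cells (1 to 5 per WT library) and macrophages (11 to 28, with at most 3 UMIs of any of the 9 genes in all) are not shown. DC (3 to 22 cells) and baso/mast cells (11 to 22) are shown although they were as few, so their values rest on few UMIs.

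Dusp6, the cytoplasmic ERK phosphatase, had its highest WT level in B cells (49.9 ± 9.59 CPM, SD over 3 libraries), followed by baso/mast cells (34.2 ± 4.16), HSC/MPP (30.3 ± 9.57) and MEP (19.6 ± 15.3). GMP/early GN (10.9 ± 5.04), late GN (10.6 ± 2.51) and Meg (10.0 ± 4.52) did not differ beyond their spread. EryP/early Ery cells had 1.33 ± 0.424 CPM of it. B cells held 21.3% of the WT Dusp6 UMIs with 3.67% of all UMIs. Dusp5, the nuclear phosphatase, had 9.01 ± 5.83 CPM in HSC/MPP and 6.08 ± 5.27 in B cells, and its mean of 11.1 ± 11.7 in DC rested on 3 UMIs. Of the 4 WT Dusp4 UMIs, 3 were in HSC/MPP.

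The Sprouty genes had different WT patterns. Spry2 was at 32.5 ± 9.81 CPM in GMP/early GN, which held 44.6% of its UMIs with 13.3% of all UMIs, and at 36.2 ± 34.4 in baso/mast cells, a mean that rested on 8 UMIs. For Spry2, HSC/MPP was at 10.6 ± 1.44 CPM and MEP at 10.9 ± 6.93, and B cells held 5.93% of its WT UMIs with 3.67% of all UMIs. EryP/early Ery (2.81 ± 0.0888) and late Ery (2.54 ± 2.31) were at the low end for Spry2. Spry1 was at 9.24 ± 5.78 CPM in Meg and 4.2 ± 2.53 in HSC/MPP, and no Spry1 UMI was seen in WT late GN, ProMo or MEP.

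Of the Sprouty-related genes, Spred1 was at 37.9 ± 7.02 CPM in Meg, 35.9 ± 15 in baso/mast, 30.0 ± 2.33 in MEP and 29.3 ± 10.7 in HSC/MPP, which do not differ beyond their spread, and at 1.80 ± 0.238 in late GN. Spred2 ran from 20.1 ± 6.24 CPM in baso/mast to 5.37 ± 0.438 in late GN, leaving out late Ery (0.520 ± 0.902) and DC, where it had no UMI. Phlda1 was at 15.7 ± 0.945 CPM in late GN, with 69.6% of its WT UMIs against 21.0% of all UMIs, at 15.6 ± 13.9 in Meg and at 11.8 ± 6.80 in B cells. Etv5 was at 11.5 ± 7.82 CPM in HSC/MPP and 7.06 ± 8.16 in B cells, against 0.654 ± 0.377 in late GN.

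**Figure D1:**
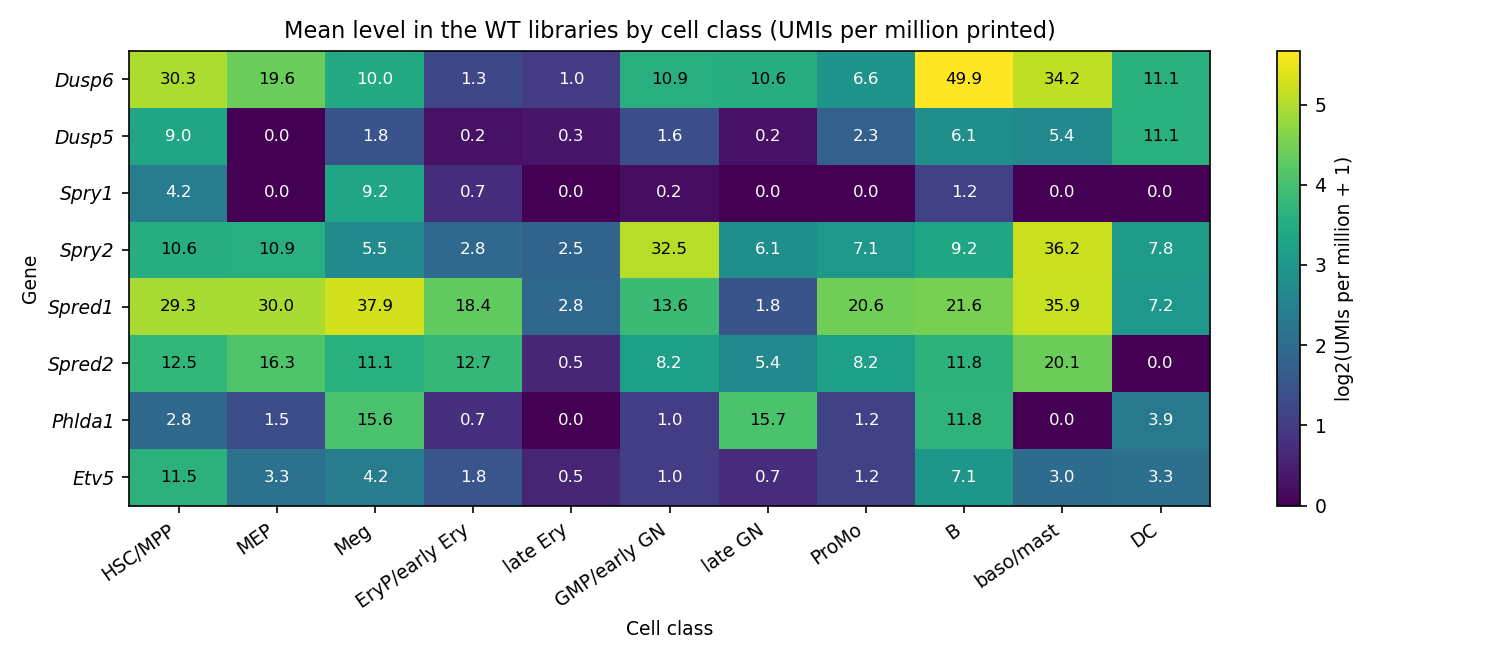
Mean level of 8 genes in 11 cell classes of the 3 WT libraries. Rows are genes, columns are classes, the printed values are CPM of the class, and the color is log2(CPM + 1). Spry2 stands out in GMP/early GN (32.5), Phlda1 in late GN (15.7) and Dusp6 in B cells (49.9). The means of Spry2 in baso/mast cells (36.2) and of Phlda1 in Meg (15.6) have SDs nearly as large as themselves.

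Similar genes were sought among the 7083 genes with a mean of at least 10 CPM, for the 3 members past that limit. Those whose levels moved most like the member's across 96 sums of 12 libraries and 8 classes were named. For Spry2 they were Fgl2, Vat1 and Pam (Pearson r of log2 levels of 0.77, 0.77 and 0.74), for Spred1 Ppif, Fubp1 and Ptp4a2 (all 0.93), and for Spred2 Tbl1x, Kansl1 and Mycbp2 (all 0.82). Spred1 and Spred2 had an r of 0.73 with each other, while Spry2 had 0.22 with Spred1 and 0.26 with Spred2. The 96 sums share libraries and depth, so these values describe likeness of pattern and nothing more.

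Over all cells, libraries with the NRas allele had higher Spry2 than libraries without it, and the effects of the other 7 tested genes, all positive, did not pass the test. Spry2 was at 11.1, 7.87 and 7.73 CPM in WT at T1, T2 and T3, at 9.21, 11.7 and 11 in E2-KO, at 17.7, 14.4 and 15.9 in G12D, and at 12.9, 19.5 and 25.4 in G12D/E2-KO. The 6 libraries with the NRas allele were all above the 6 without it (12.9 to 25.4, median 16.8, against 7.73 to 11.7, median 10.1). Among all 13143 genes tested, 0.829% had every library with the allele above every library without it. The genotype means were 8.88 ± 1.88 CPM (WT), 10.6 ± 1.29 (E2-KO), 16.0 ± 1.68 (G12D) and 19.3 ± 6.24 (G12D/E2-KO), with the SD over 3 libraries. The effect of the allele, the mean of G12D and G12D/E2-KO against the mean of WT and E2-KO, was a log2 change of 0.84 ± 0.14 (SE, 1.79-fold) for Spry2 with an adjusted p of 0.0290 by edgeR's quasi-likelihood test. It was the 1 of the 8 genes to pass, beside 4.93% of all genes tested (2.43% higher).

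Paired by time point, Spry2 was higher in 6 of 6 pairs. How many of all genes moved the same way in 6 or 5 of 6 pairs, here or within a class, was not counted. The ratio of G12D to WT was 1.61 at T1, 1.83 at T2 and 2.06 at T3, and that of G12D/E2-KO to E2-KO was 1.40, 1.66 and 2.31, with every 95% counting interval above 1. The lowest of these intervals ran from 1.16 to 1.70. The ratios were larger at T3 than at T1 in both backgrounds, a difference between time points that was not tested. With the cell classes weighted at their WT shares, as described below, this held for G12D to WT alone. Spry2 was then at 6.46 CPM in E2-KO T1 and 10.1 in E2-KO T3, against 10.1 and 14.1 in G12D/E2-KO. The G12D/E2-KO T3 library also came from the other sex than E2-KO T3. As single contrasts, Spry2 was 0.90 ± 0.20 higher on the log2 scale in G12D than in WT (edgeR adjusted p = 0.19) and 0.78 ± 0.20 higher in G12D/E2-KO than in E2-KO (edgeR adjusted p = 0.0940). DESeq2 called both, with adjusted p of 0.0167 and 0.0199, beside 1.08% and 5.21% of all genes. G12D/E2-KO was 1.03 ± 0.20 above WT (edgeR adjusted p = 0.0212), and the difference between the allele's effects in both Ezh2 backgrounds was -0.11 ± 0.28.

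The adjusted p of the Spry2 effect was sensitive to single libraries, although its size was not. Left out in turn, every library gave a log2 change between 0.77 and 0.96. The edgeR adjusted p passed 0.05 without WT T1 (0.0535), WT T3 (0.0789), E2-KO T1 (0.0723), E2-KO T2 (0.0591), G12D T1 (0.117), G12D T3 (0.0587) or G12D/E2-KO T2 (0.0593), and it was 0.172 without both libraries that shared cells. The Spry2 difference of G12D/E2-KO from WT lost its call without WT T2 (0.0583), WT T3 (0.147) or G12D/E2-KO T2 (0.102), and with only the compared genotypes in the fit (0.0613). Without both libraries that shared cells it was kept (0.0312).

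**Figure D2:**
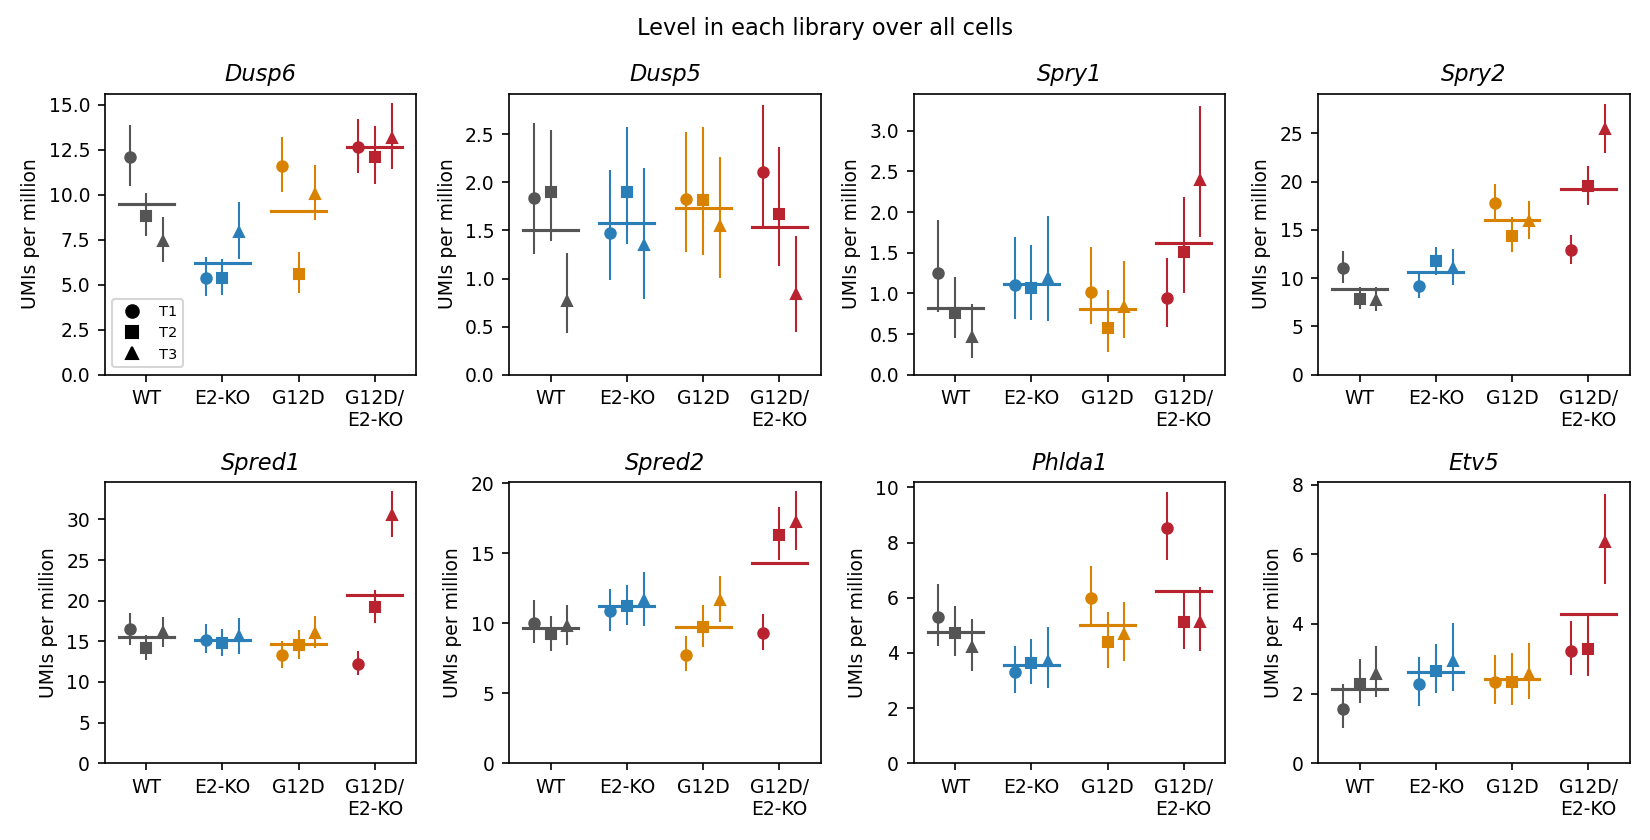
Level of 8 genes in each of the 12 libraries over all cells, in CPM. Points are libraries (circle T1, square T2, triangle T3), vertical bars are exact 95% counting intervals and horizontal lines are genotype means. The G12D and G12D/E2-KO points of Spry2 (12.9 to 25.4) sit above all WT and E2-KO points, and for Spred1 and Etv5 the G12D/E2-KO T3 library stands highest (30.6 and 6.35).

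Dusp6, the cytoplasmic ERK phosphatase, was higher in G12D/E2-KO than in E2-KO at every time point, a difference that edgeR did not call. It was at 12.1, 8.84 and 7.43 CPM in WT at T1 to T3, 5.37, 5.38 and 7.91 in E2-KO, 11.6, 5.58 and 10.0 in G12D, and 12.7, 12.1 and 13.2 in G12D/E2-KO. All 3 G12D/E2-KO libraries were above all 3 E2-KO libraries, with ratios of 2.36, 2.25 and 1.66, a separation that 11% of all genes tested had, whereas G12D was above WT in 1 of 3 pairs, with ratios of 0.958, 0.631 and 1.35. The log2 changes were 0.99 ± 0.25 for G12D/E2-KO against E2-KO (edgeR adjusted p = 0.0924, DESeq2 adjusted p = 0.0127) and -0.04 ± 0.25 for G12D against WT (edgeR adjusted p = 0.958). E2-KO itself was 0.62 ± 0.25 below WT (log2 change -0.62, edgeR adjusted p = 0.262). G12D/E2-KO was 0.38 ± 0.24 above WT on the log2 scale, which edgeR did not call (adjusted p = 0.3496). The interaction was 1.04 ± 0.35 with an edgeR adjusted p of 0.928 and an unadjusted p of 0.0133 in the same fit, beside 3.73% of all genes with an unadjusted p under 0.05.

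B cells, the class with the highest Dusp6 level per UMI in WT (late GN held more of its UMIs, 24.0%), made up 0.753% to 10.0% of WT cells and 12.5% to 13.7% of E2-KO cells, against 1.16% to 4.31% of G12D cells and 0% to 3.90% of G12D/E2-KO cells. Their Dusp6 was at 53.4, 57.3 and 39.1 CPM in WT, 22, 32.4 and 39.0 in E2-KO, 95.2, 30.9 and 40.7 in G12D, and 71.6 and 65.5 at T1 and T2 in G12D/E2-KO, whose T3 library had no B cell. With B cells and the other small classes left out, Dusp6 was at 7.50, 7.09 and 6.77 CPM in WT, 3.67, 2.63 and 4.65 in E2-KO, 9.59, 4.30 and 9.04 in G12D, and 10.6, 10.4 and 11 in G12D/E2-KO. On that base the ranges of G12D/E2-KO and of the other 3 genotypes did not overlap, and 2.48% of all genes tested had all G12D/E2-KO libraries above the others in this way.

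Etv5 and Phlda1 were higher in 5 of 6 pairs each. Etv5 was at 1.54, 2.28 and 2.56 CPM in WT, 2.26, 2.64 and 2.93 in E2-KO, 2.33, 2.33 and 2.55 in G12D, and 3.23, 3.29 and 6.35 in G12D/E2-KO. The 3 G12D/E2-KO libraries lay above the 9 others, as for 2.13% of all genes tested. Etv5 was 0.89 ± 0.23 higher on the log2 scale in G12D/E2-KO than in WT (edgeR adjusted p = 0.0447), and Spry2 and Etv5 were the 2 of 8 genes called in that contrast, both higher, beside 5.71% of all genes (3.72% higher). This call was kept in 3 of the 12 fits that left out 1 library, those without E2-KO T3, G12D T2 or G12D T3, and the adjusted p ranged from 0.0448 to 0.195. It was also lost with no low-count filter (edgeR adjusted p = 0.0548), no replicate block (0.0699), the tables as deposited (0.0623), Xist as a covariate (0.0742), the compared genotypes alone (0.0956) and without both libraries that shared cells (0.122), and kept by DESeq2 (adjusted p = 0.0353, where 10.1% of all genes were called). The NRas effect over both backgrounds was 0.42 ± 0.16 for Etv5 (edgeR adjusted p = 0.130).

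Phlda1 was at 5.29, 4.74 and 4.2 CPM in WT, 3.32, 3.62 and 3.72 in E2-KO, 5.98, 4.38 and 4.69 in G12D, and 8.53, 5.12 and 5.12 in G12D/E2-KO. All G12D/E2-KO libraries were above all E2-KO libraries, and all E2-KO libraries were below all WT libraries, separations that 11% and 9.94% of all genes tested had. The log2 changes were 0.44 ± 0.16 for the NRas effect (edgeR adjusted p = 0.124), 0.76 ± 0.24 for G12D/E2-KO against E2-KO (edgeR adjusted p = 0.131) and -0.43 ± 0.24 for E2-KO against WT (edgeR adjusted p = 0.396). Late GN cells, which held most WT Phlda1 UMIs, were 28.2% to 36.6% of WT cells and 33.3% to 37.5% of G12D cells, against 10.8% to 14.7% of E2-KO cells and 13.7% to 38.4% of G12D/E2-KO cells. These counts moved with the way classes were assigned, since a direct marker score put 601, 469 and 662 cells of the G12D libraries in late GN, against 943, 804 and 956 here. The same score put 344, 338 and 309 cells of the G12D libraries in T/NK, against 2, 1 and 13 here. In the WT libraries it put 25, 20 and 29 cells there.

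The Sprouty-related genes and the rarely counted members did not separate the groups. Spred1 ran from 12.3 to 19.2 CPM in 11 libraries and reached 30.6 in G12D/E2-KO T3. Spred2 ran from 7.76 to 11.6 CPM in 10 libraries and was 16.3 and 17.2 in G12D/E2-KO T2 and T3. That G12D/E2-KO T3 library also held 10.1% Meg cells (1.18% to 4.06% elsewhere) and 32.9% GMP/early GN cells (10.5% to 22.9% elsewhere). Mitochondrial genes made up 5.75% of its UMIs, against 3.49% to 4.62% elsewhere. Averaged over 8 classes at the WT shares of UMIs, Spred1 in that library was at 24.9 CPM, against 29.2 as sampled, and at 12.4 to 20.1 in the other 11 libraries at those shares. Spred2 was at 15.4 CPM in it at WT shares (16.2 as sampled) and at 16.1 in G12D/E2-KO T2 (16.5 as sampled), against 8.00 to 12.4 in the other 10. The NRas effect was 0.13 ± 0.12 for Spred1, 0.14 ± 0.11 for Spred2, 0.23 ± 0.29 for Spry1 and 0.12 ± 0.23 for Dusp5 (edgeR adjusted p of 0.509, 0.446, 0.644 and 0.776). Their 95% intervals on the log2 scale ran from -0.10 to 0.37, -0.08 to 0.37, -0.34 to 0.81 and -0.34 to 0.57. These intervals come from a normal approximation with the SE and are narrower than the edgeR test would give. Spry1 ran from 0.461 to 2.40 CPM and Dusp5 from 0.768 to 2.11, on 9 to 47 UMIs per library.

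All 8 tested genes had a positive NRas effect, with a median log2 change of 0.33 against a median of -0.0039 and 49.4% positive among all genes tested. In the single contrasts the median over the 8 genes was 0.07 for G12D against WT, with 6 positive, and 0.53 for G12D/E2-KO against E2-KO, with 7 positive. No gene of the 8 was called by edgeR in G12D against WT (0.107% of all genes), in G12D/E2-KO against E2-KO (0.0913%), in E2-KO against WT (1.65%) or in the interaction (0.0913%). For the NRas effect 4 (Spry2, Dusp6, Phlda1 and Etv5) had an unadjusted p under 0.05, beside 26.6% of all genes, and for G12D/E2-KO against WT 3 (Spry2, Etv5 and Spred2), beside 26.3%. In the other contrasts, in the order just given, they numbered 1 (Spry2), 4 (Spry2, Dusp6, Phlda1 and Etv5), 1 (Dusp6) and 1 (Dusp6), where 11.8%, 19.1%, 16.2% and 3.73% of all genes did so. DESeq2 called Spry2 in G12D against WT (1.08% of all genes), and Dusp6 and Spry2 in G12D/E2-KO against E2-KO (5.21%).

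**Figure D3:**
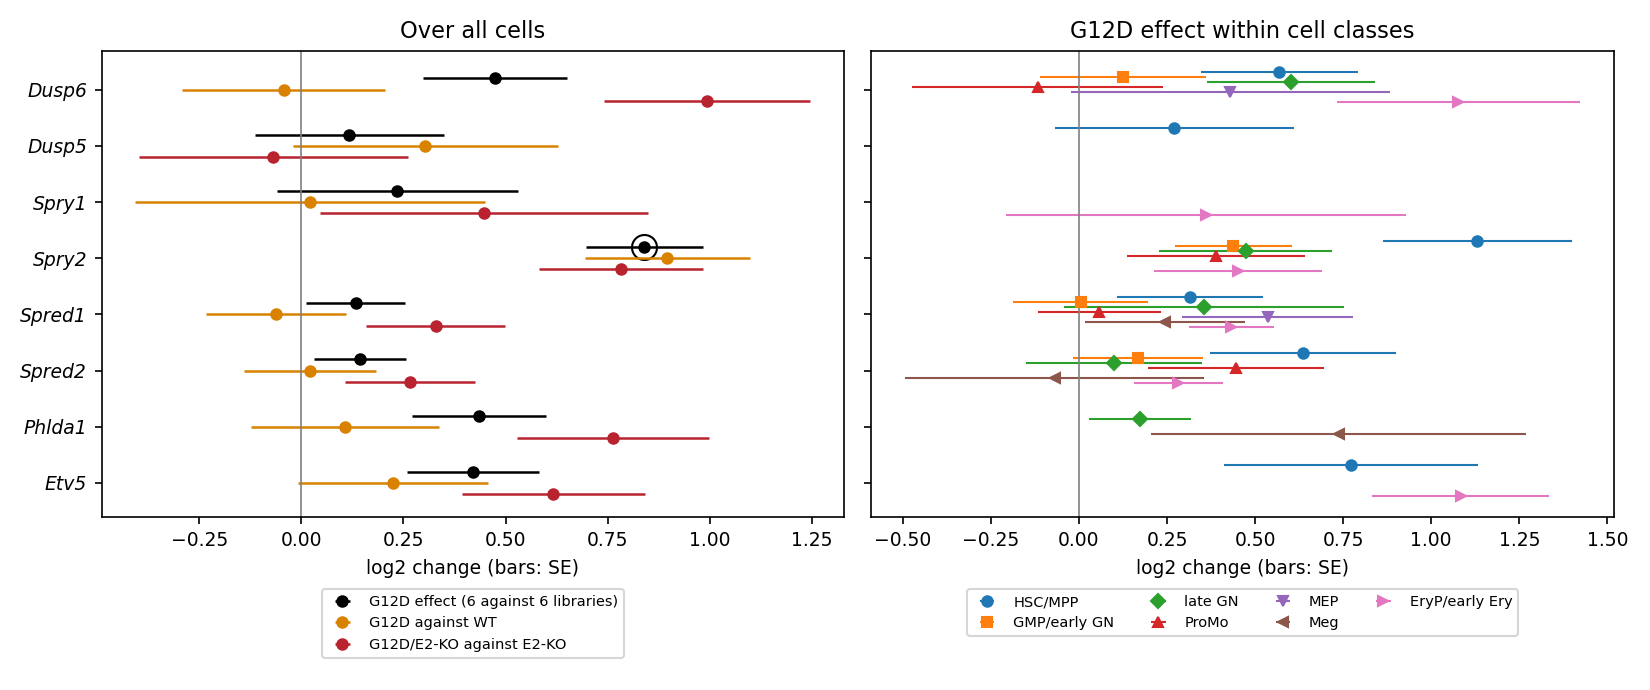
Log2 changes of 8 genes with their SE (bars), from edgeR. Left, over all cells, the NRas effect over 6 against 6 libraries (black), G12D against WT (yellow) and G12D/E2-KO against E2-KO (red), with an open circle around a value with an adjusted p under 0.05. Right, the NRas effect within 7 cell classes for each gene that passed the filter there. Spry2 over all cells carries the circle in the left panel (0.84), and no value in the right panel has 1.

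Within cell classes, no NRas effect on these genes passed the test. Spry2 in HSC/MPP was at 12.1, 10.5 and 9.21 CPM in WT, 10.3, 6.11 and 13 in E2-KO, 20.0, 24.0 and 16.3 in G12D, and 23.3, 22.9 and 22.4 in G12D/E2-KO. The 6 libraries with the allele lay above the 6 without it, as for 0.0566% of genes with at least 60 UMIs in this class. The log2 change was 1.13 ± 0.27 (2.19-fold, edgeR adjusted p = 0.116), on 4 to 29 UMIs per library. In this class Spry2 passed the filter on low counts only through libraries with the allele. Its selection for the test was therefore not independent of the difference tested. A Spry2 UMI was found in 5.13% ± 0.509 of WT HSC/MPP cells, 3.52% ± 0.613 of E2-KO, 10.8% ± 0.987 of G12D and 8.52% ± 0.757 of G12D/E2-KO ones (SD, n = 3 libraries). Thinned to 1400 UMIs per cell, these shares were 1.80%, 1.48%, 3.32% and 3.62%. In late Ery cells, which should have little of it, the share was 0.241% to 1.55% by genotype before thinning and 0.120% to 0.499% after, so the HSC/MPP shares are above that background. Median depth was 3119 to 5668 UMIs per cell in HSC/MPP and 2855 to 4282 in late Ery.

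In GMP/early GN, where Spry2 is most abundant among the tested classes, the groups overlapped. The libraries had 41.5, 22.1 and 33.9 CPM in WT, 22.7, 33.9 and 44.5 in E2-KO, 48.4, 45.9 and 40.6 in G12D, and 32.7, 39.6 and 52.8 in G12D/E2-KO. Spry2 was higher in 6 of 6 pairs there, with a log2 change of 0.44 ± 0.17 (edgeR adjusted p = 0.666). In Meg, Spry2 had 0 to 7 UMIs in 11 libraries and 15 in G12D/E2-KO T3, and did not pass the filter. Its Meg level was 0 to 6.52 CPM in the 6 libraries without the allele and 8.91 to 21.9 in the 6 with it, where 0.117% of genes with at least 60 UMIs in Meg were above in this way and Spry2 had 52. Other members below the filter went both ways. Dusp6 in Meg, on 73 UMIs in all, was higher with the allele in 6 of 6 pairs. Spry1 in Meg (0 to 14 UMIs per library) was lower with it in 5 of 6 pairs and Dusp5 in ProMo (1 to 6 UMIs per library) in 6 of 6. The Spry2 changes were 0.47 ± 0.25 in late GN, 0.39 ± 0.25 in ProMo and 0.45 ± 0.24 in EryP/early Ery (edgeR adjusted p of 0.797, 0.893 and 0.483).

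**Figure D4:**
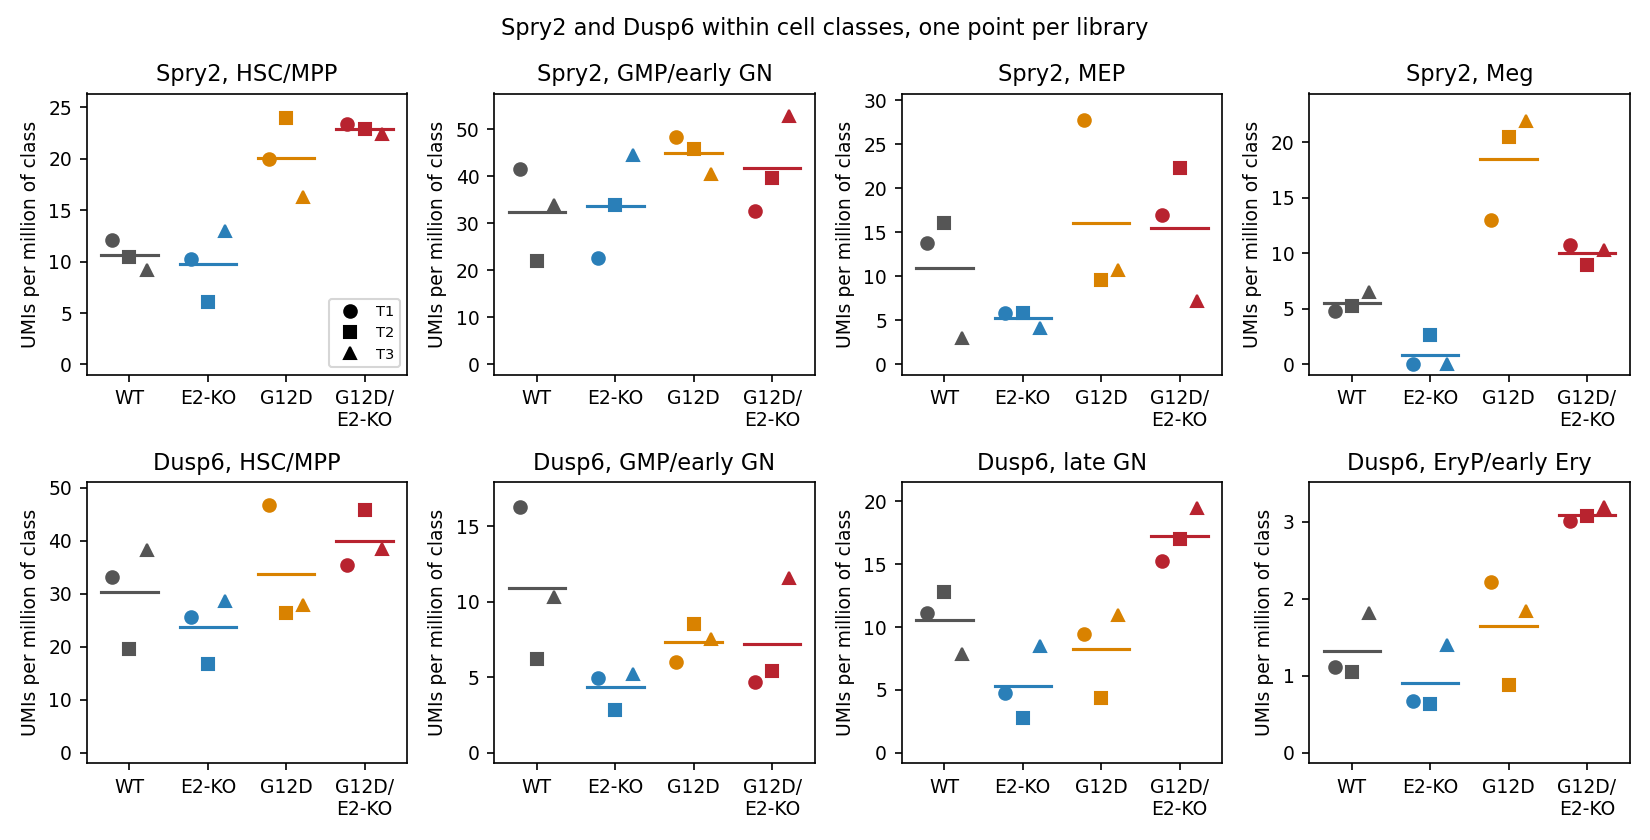
Spry2 (upper row) and Dusp6 (lower row) in 4 cell classes each, 1 point per library (circle T1, square T2, triangle T3), in CPM of the class, with genotype means as lines. Spry2 in HSC/MPP separates the G12D and G12D/E2-KO libraries (16.3 to 24.0) from the others (6.11 to 13), and Dusp6 in late GN is highest in G12D/E2-KO (15.3 to 19.5).

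Dusp6 within late GN and EryP/early Ery was highest in the 3 G12D/E2-KO libraries, as for 1.21% and 0.83% of genes with at least 60 UMIs in these classes. In late GN it was at 11.1, 12.8 and 7.85 CPM in WT, 4.74, 2.78 and 8.46 in E2-KO, 9.45, 4.32 and 10.9 in G12D, and 15.3, 17.0 and 19.5 in G12D/E2-KO. The log2 change of G12D/E2-KO against E2-KO in late GN was 1.65 ± 0.37 (edgeR adjusted p = 0.455) and the interaction 2.09 ± 0.47 (edgeR adjusted p = 0.210), where 0.0222% and 0.0443% of all genes in the class were called. In EryP/early Ery, at 0.632 to 3.19 CPM and 4 to 14 UMIs per library, the NRas effect on Dusp6 was 1.08 ± 0.34 (edgeR adjusted p = 0.221). There Dusp6 passed the filter on low counts only through libraries with the allele. In HSC/MPP the effect was 0.57 ± 0.22 (edgeR adjusted p = 0.650), with 16.8 to 38.2 CPM without the allele and 26.4 to 46.7 with it. In GMP/early GN the effect was 0.13 ± 0.24, and E2-KO was below WT with a log2 change of -1.25 ± 0.35 (edgeR adjusted p = 0.105, 1.12% of all genes called). Against WT, Dusp6 in G12D/E2-KO went both ways by class, with no call. The log2 change was 1.29 ± 0.44 in EryP/early Ery, 0.53 ± 0.29 in HSC/MPP, 0.48 ± 0.27 in late GN and 0.20 ± 0.56 in MEP. It was -0.59 ± 0.31 in GMP/early GN and -0.77 ± 0.48 in ProMo. The edgeR adjusted p were 0.1196, 0.5116, 0.3211, 0.9239, 0.3505 and 0.4385 in that order.

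Etv5 passed the test in EryP/early Ery for G12D/E2-KO against WT. In EryP/early Ery it was at 1.11, 1.81 and 2.59 CPM in WT, 2.85, 2.02 and 3.26 in E2-KO, 4.12, 3.17 and 4.61 in G12D, and 3.67, 3.07 and 10.3 in G12D/E2-KO, higher in 6 of 6 pairs. G12D/E2-KO was 1.59 ± 0.36 above WT on the log2 scale (edgeR adjusted p = 0.0301), the 1 of 6 genes called there beside 3.09% of all genes tested in the class. This adjusted p was 0.136 without WT T1, 0.0514 without WT T2, 0.174 without WT T3, 0.0984 without G12D/E2-KO T3, 0.0747 without both libraries that shared cells and 0.0652 with no replicate block. The NRas effect on Etv5 was 1.08 ± 0.25 in this class (edgeR adjusted p = 0.117) and 0.77 ± 0.36 in HSC/MPP (edgeR adjusted p = 0.781).

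In the 7 classes where a gene could be tested (20 or more cells of the class per library), 30 gene and class combinations passed the filter. The NRas effect was positive in 28 of them and negative in 2. Of all genes tested, 50.1% to 53.1% had a positive effect in these classes. The 30 combinations come from the same 12 libraries. The filter keeps a gene with enough UMIs in a few libraries of any genotype. Spry2 in HSC/MPP and Dusp6 and Spry1 in EryP/early Ery passed it only through libraries with the allele. The counts of positive effects, also those by unadjusted p below, therefore lean upward and are not support for an effect. None was called by edgeR, and of all genes tested it called 0.164% in HSC/MPP, 0.106% in GMP/early GN, 0.0887% in late GN, 0.144% in ProMo, 0.0185% in MEP, 0.0355% in Meg and 0.039% in EryP/early Ery. At an unadjusted p under 0.05 there were 11, all positive: Spry2, Dusp6, Spred2 and Etv5 in HSC/MPP, Spry2 in GMP/early GN, Dusp6 in late GN, Spred1 in MEP, and Spred1, Spred2, Dusp6 and Etv5 in EryP/early Ery. Of all genes tested, 5.99% reached that limit in HSC/MPP, 6.42% in GMP/early GN, 6.55% in late GN, 6.13% in ProMo, 7.21% in MEP, 5.07% in Meg and 12% in EryP/early Ery. Spred1 in EryP/early Ery, on 55 to 146 UMIs per library, was at 14.8 to 19.6 CPM without the allele and 18.3 to 29.7 with it (log2 change 0.43 ± 0.12, edgeR adjusted p = 0.184). Phlda1 in late GN was higher in 6 of 6 pairs by a small margin, 14.2 to 16.9 CPM without the allele and 15.5 to 20.8 with it (log2 change 0.17 ± 0.14, edgeR adjusted p = 0.923). In late Ery no member passed the filter.

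To set the shares of cell classes aside, the level of each gene in the 8 classes was averaged with the WT shares of UMIs as weights, and set against the level over the same 8 classes as sampled. B, T/NK, DC, baso/mast and macrophage cells and cells without a class are in neither. The weights do not fix the mix of cells inside a class. In a GMP/early GN cluster of 159 WT cells, Spry2 was among the 10 genes with the highest fold over other WT cells. The share of such cells within the class was not tested. The mean log2 ratio of Spry2 over 3 pairs went from 0.93 ± 0.16 to 0.56 ± 0.29 for G12D against WT, and from 0.83 ± 0.43 to 0.51 ± 0.11 for G12D/E2-KO against E2-KO (SD), higher in 3 of 3 pairs in both. At WT shares the Spry2 groups overlapped, with 6.46 to 11.4 CPM in the 6 libraries without the allele and 10.1 to 14.1 in the 6 with it. G12D/E2-KO T1 (10.1) was then below WT T1 (11.4) and level with E2-KO T3 (10.1). GMP/early GN cells, which held the 44.6% of WT Spry2 UMIs given above, were 10.5% to 13.7% of WT cells, 14% to 21.5% of E2-KO cells, 17.4% to 19.1% of G12D cells and 15.2% to 32.9% of G12D/E2-KO cells. Dusp6 went from 1.56 ± 0.37 to 1.22 ± 0.39 for G12D/E2-KO against E2-KO. Phlda1 went from 1.18 ± 0.50 to 0.34 ± 0.26 in that pair, whose late GN shares are given above. Etv5 went from 0.40 ± 0.48 to 0.69 ± 0.50 for G12D against WT and stayed at 0.77 ± 0.48 (from 0.80 ± 0.26) for G12D/E2-KO against E2-KO.

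**Figure D5:**
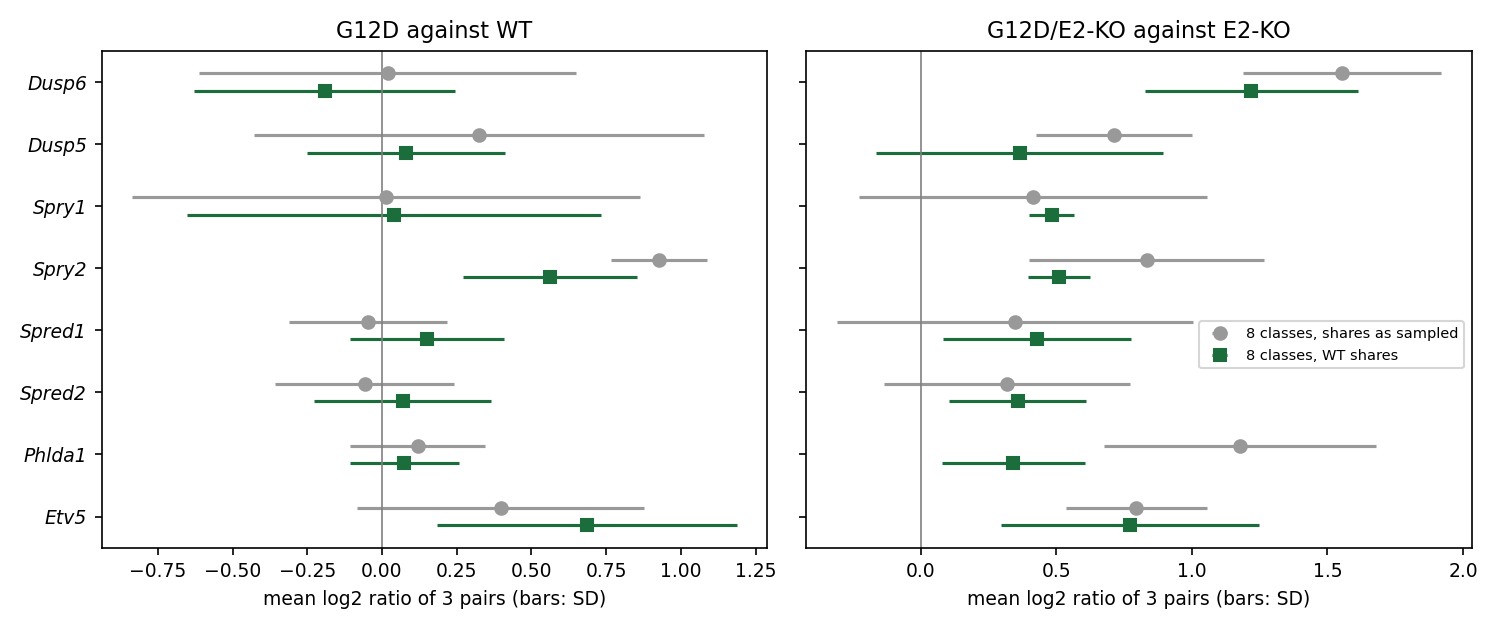
Mean log2 ratio of 3 time-point pairs (bars, SD) for 8 genes, summed over 8 classes with the shares as sampled (grey circles) and with the WT shares of UMIs (green squares). Left, G12D against WT, and right, G12D/E2-KO against E2-KO. Spry2 stays positive in both panels (0.56 and 0.51 at WT shares), and Phlda1 in the right panel moves from 1.18 to 0.34.

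Other genes of the pathway were taken as fixed lists. Among 25 other ERK output genes, 18 were tested, and in the NRas effect 2 rose, 1 fell and 15 did not pass the edgeR test (median log2 change 0.26 against -0.0039 for all genes), beside 4.93% of all genes called (2.43% higher). Ccnd1, which encodes the cell cycle regulator cyclin D1, rose by 1.04 ± 0.15 (edgeR adjusted p = 0.0177), from 5.20 to 9.46 CPM in the libraries without the allele to 8.37 to 27.2 in those with it. Maff, a small MAF transcription factor, rose by 2.03 ± 0.43 (edgeR adjusted p = 0.0352) on 1 to 22 UMIs per library. Maff passed the filter on low counts only through libraries with the allele. Odc1, the rate-limiting enzyme of polyamine synthesis, fell, with a log2 change of -0.58 ± 0.12 (edgeR adjusted p = 0.0338). Of 15 other dual-specificity phosphatases tested, none passed the edgeR test (median 0.01). Of 22 genes of the RAF-MEK-ERK cascade itself, Rps6ka1, which encodes a kinase activated by ERK, rose by 0.37 ± 0.09 (edgeR adjusted p = 0.0461) and 21 did not pass. Of 12 ERK-regulated transcription factors none passed the edgeR test (median 0.10). Among 15 tested genes that respond to tissue dissociation and stress, several of which ERK also induces, 1 fell (Hsp90aa1, log2 change of -0.64 ± 0.11, edgeR adjusted p = 0.0276) and none rose, with a median of 0.27. None of these 5 calls held without both libraries that shared cells, where the edgeR adjusted p was 0.172 for Ccnd1 and Maff, 0.227 for Odc1, 0.268 for Rps6ka1 and 0.196 for Hsp90aa1. Of the 12 fits that left out 1 library, Ccnd1 lost its call in 5, Hsp90aa1 in 7, and Maff, Odc1 and Rps6ka1 in 9 each. The Ccnd1 call was lost without WT T1, WT T3, E2-KO T1, G12D T1 or G12D T3, and the highest edgeR adjusted p over the 12 fits was 0.0982 for Ccnd1, 0.113 for Maff, 0.120 for Odc1, 0.134 for Rps6ka1 and 0.117 for Hsp90aa1, each without G12D T1. The summed level of all 18 such genes was 1648 to 1957 CPM (WT), 1565 to 1898 (E2-KO), 1574 to 1674 (G12D) and 1300.2 to 1624 (G12D/E2-KO). Hsp90aa1, the gene that fell, made up a large part of this sum, at 381 to 639 CPM with the allele and 688 to 920 without it. Without Hsp90aa1 the sum was 752 to 1292 CPM with the allele and 767 to 1132 without it. Fos, an immediate early gene, was at 1.99 to 4.87 CPM with the allele and 1.38 to 2.60 without it. Other genes of this list did not share that pattern. Egr1 was at 0.203 to 0.237 CPM in G12D and 0.763 to 2.27 in G12D/E2-KO, against 0.535 to 1.42 without the allele. Jun was at 2.26 to 3.73 CPM with the allele and 2.36 to 5.29 without it. The part of handling in the results was not tested.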

How the data were processed

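The data were 10x Genomics 3' single-cell RNA-seq counts of 12 libraries, 1 per genotype and time point. Per the study's methods, the authors aligned and counted reads with Cell Ranger (mm10) and removed doublets called by Scrublet and cells above 10% mitochondrial counts. The deposited tables hold raw UMI counts per cell and gene, with no normalization, and no count was changed here. Counts were summed per library and per class. Cells of different libraries were matched by a cosine similarity over 0.9 of log counts of 8000 genes. Matched cells of G12D T1 and G12D/E2-KO T1 were kept in the latter only. Of these 2896 cells, 1494 had identical counts in both tables. The lowest cosine of a match was 0.9142, and the highest between any other libraries was 0.8525. Cell names inside the tables number the time points from T0 to T2 where the sample titles run from T1 to T3, and the titles were followed.

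The 9 genes and all gene lists were chosen with earlier results of these data known. Classes came from Leiden clustering of WT cells (scanpy 1.11.5, 1980 variable genes, 50 components, 15 neighbours, resolution 2). Of 30 clusters, 28 could be named from markers, and cells of the other genotypes took the class of the nearest WT cell. In 96.954% of cases a WT cell had the same class as its nearest cell in the other WT libraries. The components and clusters were made from all WT libraries, so this share tests neither the making of the classes nor the placing of mutant cells. A direct marker score gave the same class for 77.423% of cells. No doublet caller was run again.

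The test on these sums was that of edgeR 4.0.16 (in R 4.3.3, with TMM, quasi-likelihood F-test, filterByExpr filter) over all 12 libraries with genotype and time point as terms. P-values were adjusted by Benjamini-Hochberg over all genes tested in a scope, two-sided, with a threshold of 0.05. Time point was the block. Over 7083 genes, the 18 pairs of libraries of the same time had correlations of deviations from the genotype means from -0.27 to 0.497 (median 0.188, 11 over 0.1), against a median of -0.116 for 36 pairs of different times. Counting intervals are exact at 95%. For levels at WT shares a pseudocount of 0.1 CPM was added. The genes named were the 9 members, the targeted genes and, from each list, those past the threshold for the NRas effect. For members with a mean of at least 10 CPM, the 3 genes with the highest correlation of log2(CPM + 5) were named too, among genes with such a mean. Alternatives were DESeq2 1.42.0, no low-count filter, no block, tables as deposited, Xist as a covariate, sums without haemoglobin and late granulocyte genes, classes from the direct marker score, class weights from all 12 libraries, fits on the compared genotypes alone, each library left out and, added after seeing the data, both libraries that shared cells left out. Scripts were tested on simulated data.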

Additional observations from a re-analysis of the deposited data

Results flagged for a closer look

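Spred1 in ProMo-like cells was singled out because all 3 pairs in one Ezh2 background moved against all 3 pairs in the other. It was at 24.2, 18.8 and 19.0 CPM in WT at T1, T2 and T3, 13.1, 19.2 and 19.4 in E2-KO, 15.3, 16.2 and 16.1 in G12D, and 19.8, 19.4 and 38.7 in G12D/E2-KO. G12D was lower than WT in 3 of 3 pairs and G12D/E2-KO higher than E2-KO in 3 of 3 pairs, at T2 by 19.4 against 19.2 CPM. The interaction was a log2 difference of 0.77 ± 0.35 (SE), with an edgeR adjusted p of 1. Opposite signs of the fitted changes were not particular to it. Spred2 in ProMo-like cells had log2 changes of -0.11 (G12D against WT) and 1.001 (G12D/E2-KO against E2-KO), with an interaction of 1.11 ± 0.50 (edgeR adjusted p of 1), and Dusp6 in late GN-like cells had -0.44 and 1.65, with an interaction of 2.09 ± 0.47 (edgeR adjusted p = 0.210). In both, 2 of 3 G12D libraries were lower than WT and 3 of 3 G12D/E2-KO libraries were higher than E2-KO.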

How the results depend on the processing

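Of 566 alternative fits of 30 results for single genes, 524 kept the call and 563 the direction. Most of these results were not called to begin with, and one that stayed uncalled counts as kept. The calls themselves were less stable. Of 12 fits that left out 1 library, 7 lost the Spry2 call for the NRas effect. For G12D/E2-KO against WT, 3 lost that of Spry2, 9 that of Etv5, and 4 that of Etv5 in EryP/early Ery. The 3 reversals were all of the Dusp5 effect (0.12), -0.0050 without E2-KO T1, -0.0273 without G12D/E2-KO T1 and -0.0343 without both libraries that shared cells, and leaving out 1 library gave -0.0273 to 0.2274.

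The number of the 8 genes called for the NRas effect was 1, 0 without both libraries that shared cells, and 0 to 2 with 1 library left out. DESeq2 called 1 in G12D against WT and 2 in G12D/E2-KO against E2-KO, where edgeR called 0. For G12D/E2-KO against WT, edgeR called 2, 1 with no low-count filter, 1 with the tables as deposited, 1 with Xist as a covariate, 0 with only the compared genotypes, 1 without both libraries that shared cells (in each of these Etv5 lost its call, and with only the compared genotypes Spry2 too), and 0 to 2 with 1 library left out. Within classes, no low-count filter gave 2 calls, Spry2 in HSC/MPP and Etv5 in EryP/early Ery. The share of all genes called in these unfiltered fits is not given here, so the 2 calls cannot be weighed against it.

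Among all genes, the NRas effect gave 648 calls, 1511 by DESeq2, 1618 with Xist, 3 without both libraries that shared cells and 2 to 1594 with 1 library left out. G12D against WT gave 14, then 142 (DESeq2), 27 (no filter), 8 (as deposited), 26 (Xist), 24 (compared genotypes), 7 (without both) and 4 to 136. G12D/E2-KO against E2-KO gave 12, then 685, 56, 1, 494, 6, 5 and 0 to 467 in that order. G12D/E2-KO against WT gave 750, then 1322 (DESeq2), 446 (as deposited), 1416 (Xist), 395 (compared genotypes), 219 (without both) and 91 to 1368. The cause was not tested, except that fits with libraries left out hold fewer samples.

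Time points are the pairing of the libraries. With no replicate block, 1 of the 8 genes was called for the NRas effect and 1 for G12D/E2-KO against WT, Etv5 losing its call (edgeR adjusted p = 0.0699), and 522, 11, 9 and 608 genes of all were called in these 4 contrasts. Etv5 in EryP/early Ery lost its call against WT with no block (edgeR adjusted p = 0.0652), and no other call changed. Leaving out haemoglobin and late granulocyte genes, a direct marker score for the classes and WT-share weights from all 12 libraries changed no direction or call of the results they were run on. DESeq2 gave no adjusted p for Maff. Depth limits Dusp4 (14 UMIs) and the class values of under 10 UMIs per library.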
